A study of Arabidopsis thaliana with 12 samples.

Results

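Transcripts were counted in Arabidopsis thaliana seedlings of the line camta6-5 and of the wild type Col-0, both kept without added NaCl, to show how the genotypes differed in the absence of salt stress. The comparison used 6 of the 12 libraries of the study, 3 labelled camta6-5 control and 3 labelled Col-0 control, and all genes that passed a filter on low counts, 18515 of the 33602 in the table. Per the labels, seeds of both genotypes were cold-stratified and sown on agar with MS salts, the medium held 0 or 200 mM NaCl for 16 h, and the material was pre-germinated seedlings. camta6-5 is given as a mutant allele of CAMTA6 with no statement of its lesion or of its effect on the transcript, and no transgene is named. The 6 libraries with 200 mM NaCl (camta6-5 NaCl and Col-0 NaCl, 3 each) entered the fit for its estimate of spread and served as a second look at the same genotypes. Levels are given as CPM, counts of a gene scaled to a common library size.

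CAMTA proteins are transcription factors that bind calmodulin, the calcium sensor of the cell, and that recognise promoters with a CGCG core. Several members of the family act in cold, drought and defence responses of Arabidopsis. TOPLESS and the TOPLESS-related (TPR) proteins, which come up below, are corepressors: they do not bind DNA themselves and are recruited by repressors, among them those of auxin and jasmonate signalling.

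Totals ran from 30363367 to 33110796 counts in the camta6-5 control libraries and from 31024600 to 35450685 in the Col-0 control libraries. A gene without any count in a group could still have had up to 0.0323 CPM in camta6-5 control or 0.0302 CPM in Col-0 control, the level of 3 counts summed over its libraries, for counting error only. The genotypes lay close to each other without NaCl. The median absolute log2 difference between 2 libraries was 0.14 to 0.215 over the 9 pairs of 1 library from each genotype, against 0.148 to 0.197 over the 3 pairs within camta6-5 control and 0.131 to 0.165 within Col-0 control. On the first principal component of the 6 libraries, which held 33.6% of their variance, the camta6-5 libraries scored -28.7, -8.05 and -10.5 and the Col-0 libraries 0.246, 8.11 and 38.9. The share of counts on 18S rRNA was 1.03%, 0.108% and 0.537% in camta6-5 control and 0.508%, 0.0718% and 0.0343% in Col-0 control, so it was higher on average in camta6-5. Its bearing on the calls was read by leaving out the libraries richest in it, which is given at the end, and by leaving out organelle and rRNA genes, which gave 18 genes higher and 29 lower and kept 39 of the 40 calls reported next (AT1G27350 was lost).

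In edgeR's quasi-likelihood test with Benjamini-Hochberg adjustment, 40 genes were called at an adjusted p of 0.05, which is 0.216% of the genes tested. Of these, 16 were higher in camta6-5 (0.0864%) and 24 lower (0.13%), and 9 of each differed by at least 2-fold. In all 40 the 3 camta6-5 libraries lay wholly above or wholly below the 3 Col-0 libraries, which the rule for a call favours and which also held for 2545 of all 18515 tested genes (13.7%). The median log2 difference over all tested genes was 0.006, and its median size was 0.11 without NaCl, against 0.44 between the same genotypes with NaCl. An unadjusted p under 0.05 was reached by 2038 genes (11.01%). The count of calls rested on single libraries: it was 8 higher and 16 lower without camta6-5 control replicate 1, 8 and 17 without Col-0 control replicate 1, 11 and 16 without Col-0 control replicate 2, 10 and 19 without Col-0 control replicate 3, and 9 and 19 without Col-0 NaCl replicate 1. In the simulation of this comparison, 67 genes were set to differ 1.5-fold, 67 to differ 2-fold and 66 to differ 4-fold. It found 32, 54 and 64 of them, so a gene without a call may still differ. The simulation also called 11 genes that were set not to differ. It held more differing genes than the 40 called here. The recoveries and the 11 false calls are therefore not rates for these data.

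**Figure D1:**
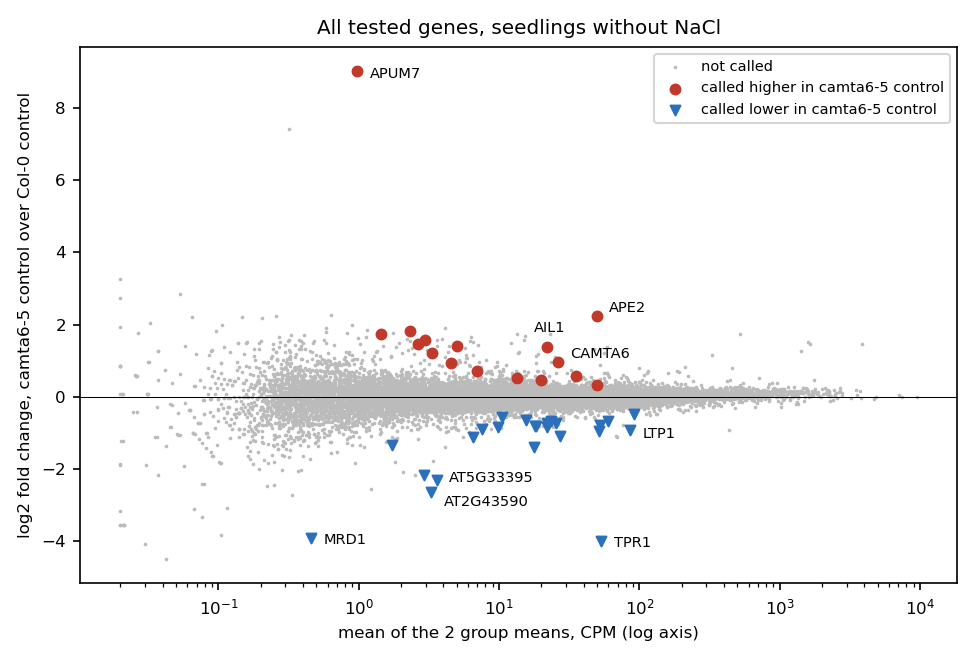
Each point is 1 of the 18515 tested genes: the x axis (log) is the mean of its camta6-5 control and Col-0 control mean CPM, drawn at 0.02 where lower, and the y axis is its log2 fold change, camta6-5 control over Col-0 control. Red circles are the 16 genes called higher in camta6-5 and blue triangles the 24 called lower; most of the grey, uncalled genes lie near 0, and TPR1 lies apart at -3.99. The fitted value of APUM7, which had no count in Col-0, depends on the prior count and is not a measured size.

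CAMTA6 itself (AT3G16940, TAIR10 chromosome 3, 5781775 to 5786280) was examined first, as the check of the labels. It had 35.4, 33.2 and 35.6 CPM in the libraries labelled camta6-5 control, against 14.7, 18.8 and 20.0 CPM in Col-0 control. All 3 libraries labelled camta6-5 were thus above all 3 Col-0 libraries, with a log2 fold change of 0.96 ± 0.131 (SE, n = 3 against 3, edgeR adjusted p = 0.00662). Counts per gene do not say which part of a transcript was read, so they check neither the lesion nor a full-length transcript, and camta6-5 is used throughout as the label of a library. Without any 1 of the control libraries the log2 value stayed between 0.83 and 1.05 and the call was kept. The other 5 members of the family were not called: CAMTA1 was at -0.08, CAMTA2 at 0.07, CAMTA3 at -0.01, CAMTA4 at -0.10 and CAMTA5 at -0.06 on the log2 scale, with edgeR adjusted p from 0.783 to 0.977.

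The window of 250 bases upstream of the RefSeq start of CAMTA6 (build TAIR10.1) holds 1 CGCG, the core that CAMTA proteins recognise. The motif is its own reverse complement, so 1 search covers both strands. It occurred in the windows of 4 of the 40 called genes (10%), against 2078 of 18445 tested nuclear genes (11.3%). By direction it was found in 2 of 16 genes called higher (12.5%) and 2 of 24 called lower (8.33%). The share among called genes was thus near that of all genes. The windows of TPR1, AIL1, GLK1 and GLK2, described below, hold no CGCG. The matched stretches are printed with the core in capitals, on the strand of the gene, as the motif context of the 4 called genes that have it, which are CAMTA6, the nucleolar GTP-binding protein gene AT1G10300, the DREB-type factor gene DDF1 and the glycine-rich protein gene AT5G33390. A match is a description of the letters and not a site.
CAMTA6, chr3:5781194-5781233, plus strand, 206 bases upstream of the start: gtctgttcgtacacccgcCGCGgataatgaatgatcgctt
AT1G10300, chr1:3377782-3377821, plus strand, 78 bases upstream: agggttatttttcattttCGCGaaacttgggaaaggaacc
DDF1, chr1:4291068-4291109, minus strand, 74 bases upstream, with 2 overlapping matches: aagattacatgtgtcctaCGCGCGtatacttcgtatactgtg
AT5G33390, chr5:12661560-12661599, plus strand, 130 bases upstream: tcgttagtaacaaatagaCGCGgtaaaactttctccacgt
AT5G33390, chr5:12661602-12661641, plus strand, 88 bases upstream: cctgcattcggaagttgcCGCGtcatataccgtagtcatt

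The most clearly separated gene was TPR1 (AT1G80490, TOPLESS-related 1, chromosome 1, 30260903 to 30267038), a corepressor gene. It had 7.90, 6.36 and 4.75 CPM in camta6-5 control, against 100.1, 99.8 and 103 CPM in Col-0 control. The fall was 15.9-fold (log2 -3.99 ± 0.151, SE, edgeR adjusted p = 1.82e-08), and the counts in camta6-5 were low but not 0. TPR1 was the only one of the 40 genes that kept its call under all 23 alternatives tried. With NaCl the gap was also present and smaller, with 7.77, 8.12 and 5.96 CPM in camta6-5 NaCl, against 77.8, 80.7 and 73.3 CPM in Col-0 NaCl (log2 -3.40, interaction 0.59, edgeR adjusted p = 0.0262). Counts per gene do not show whether the line differs from Col-0 at the TPR1 locus itself, which was not tested. The other 4 corepressor genes of the family were not called: TPL was at 0.04, TPR2 at -0.00, TPR3 at 0.25 and TPR4 at -0.02 on the log2 scale (edgeR adjusted p from 0.346 to 0.983), and TPR1 was also the 1 call of this family in DESeq2. Summed over the 5 genes, the level was 514 to 571 CPM in camta6-5 control and 602 to 633 CPM in Col-0 control.

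The tested genes around TPR1 and CAMTA6 on their chromosomes were then read. Of the 5 tested genes on each side of TPR1, 0 of 10 were called, and their log2 differences ran from -0.57 to 0.37 with a smallest edgeR adjusted p of 0.354. Within 500 kb of TPR1, 0 of 153 tested genes were called. Of the 10 neighbours of CAMTA6, 0 were called, with log2 differences from -0.35 to 0.51. The highest was GATA17, a GATA-type transcription factor gene, with 45.0 CPM in camta6-5 control and 31.6 CPM in Col-0 control on average (log2 0.51 ± 0.0943, SE, edgeR adjusted p = 0.052), just short of the threshold. Within 500 kb of CAMTA6, 2 of 213 tested genes were called, PIFI (higher) and UGT88A1 (lower), where 0.216% of all tested genes were. At an unadjusted p under 0.05 there were 1 of 10 around TPR1 and 3 of 10 around CAMTA6, against 11.01% of all tested genes. DESeq2 called 0 and 1 of these neighbours, against 157 of all 18515 tested genes.

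**Figure D2:**
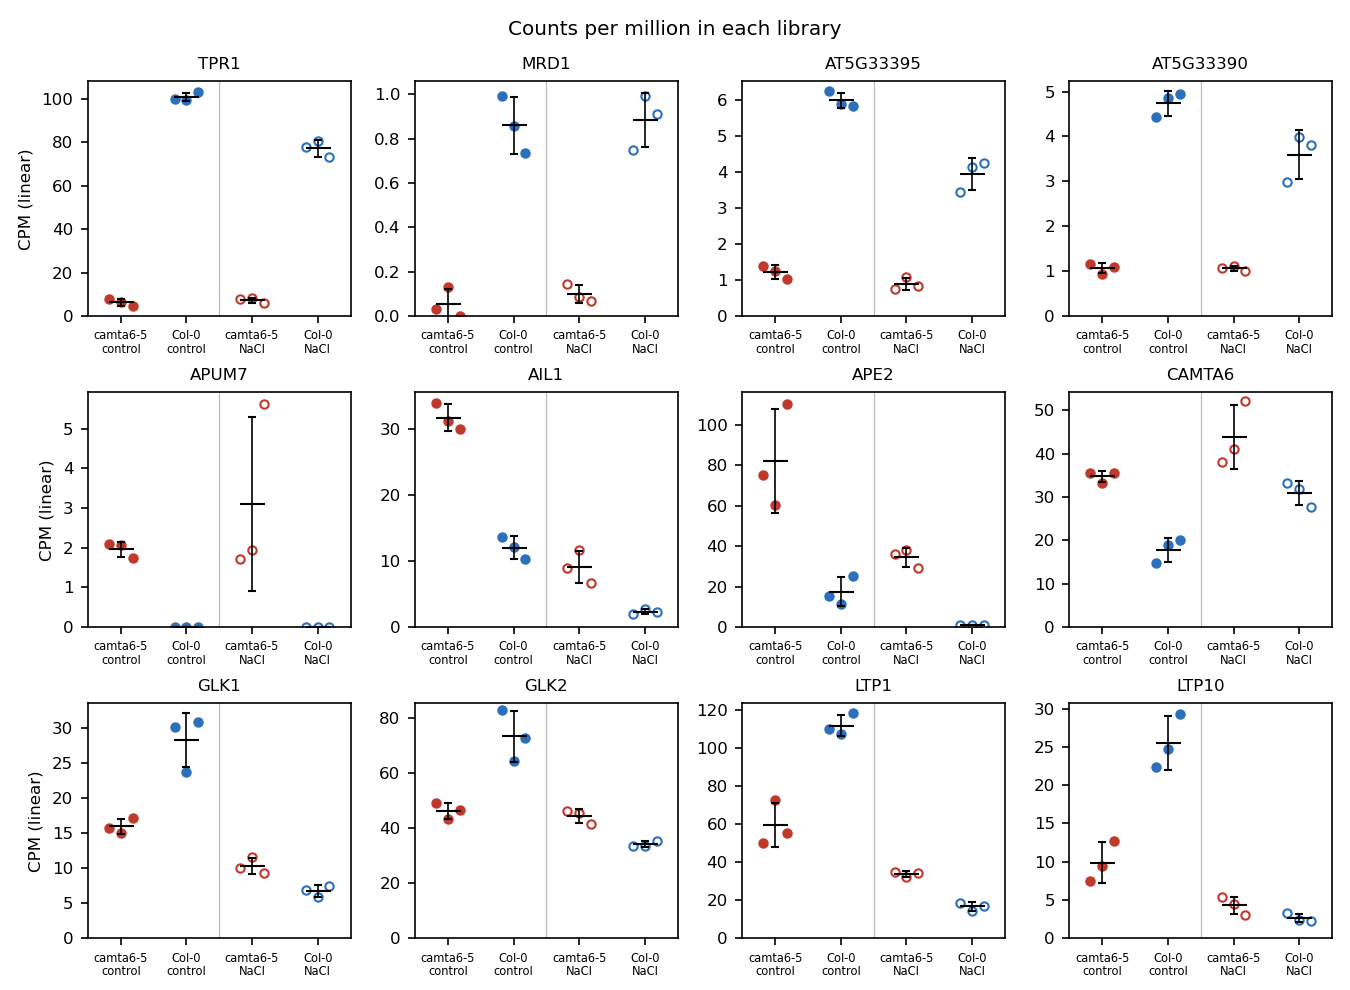
CPM (linear axis) of 12 called genes in each library: filled points are libraries without NaCl and open points libraries with NaCl, red for camta6-5 and blue for Col-0, with the group mean and SD in black. TPR1, MRD1 and the adjacent pair AT5G33395 and AT5G33390 are low in camta6-5 in both media, while GLK1, GLK2, LTP1 and LTP10 are lower in camta6-5 without NaCl and higher on average in camta6-5 with NaCl. The groups of LTP10 with NaCl overlap.

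APUM7 (AT1G78160, chromosome 1, 29407900 to 29410184), a gene of the Pumilio family of RNA-binding proteins, was detected only in the libraries labelled camta6-5. It had 2.08, 2.05 and 1.73 CPM in camta6-5 control (182 counts) and 0 counts in each Col-0 control library. Against 3 counts over the Col-0 group, it was at least 64.85-fold higher. With NaCl it had 295 counts in camta6-5 NaCl and 0 in Col-0 NaCl, at least 103.2-fold higher. Of the 295 counts 168 were in camta6-5 NaCl replicate 3, and without that library the bound was 63.5-fold. It was the only tested gene with no count in a control group and at least 1 CPM in the other. APUM7 lies within 1000 kb of TPR1 on chromosome 1, a stretch with 257 tested genes of which it was the single one called besides TPR1. Its edgeR adjusted p was 0.0166 and rose above the threshold without camta6-5 control replicate 1 (0.0541), Col-0 control replicate 1 (0.0629) or Col-0 control replicate 2 (0.0509).

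APE2 (AT5G46110), which encodes the translocator that exports triose phosphates from chloroplasts, was the second highest rise. It had 75.1, 60.4 and 111 CPM in camta6-5 control, against 15.2, 11.5 and 25.3 CPM in Col-0 control. The groups did not overlap, although replicate 3 was the highest library in both genotypes. The log2 fold change was 2.24 ± 0.257 (SE, edgeR adjusted p = 0.00258), and APE2 overlaps another annotated feature, so part of its reads may be of uncertain origin. Of the 5 tested plastid sugar phosphate translocator genes it was the 1 called, where 0.216% of all tested genes were. The list's median was 0.08 on the log2 scale. GPT2, a glucose 6-phosphate translocator gene, was at 0.48 (edgeR adjusted p = 0.53), with PPT1, XPT and GPT1 between -0.10 and 0.08.

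AIL1 (AT1G72570), an AINTEGUMENTA-like factor of the AP2 class, was also higher. This class holds regulators of organ growth and of stem cell identity in the root. AIL1 had 33.9, 31.1 and 29.9 CPM in camta6-5 control, against 13.6, 12.1 and 10.2 CPM in Col-0 control (log2 1.397 ± 0.165, SE, edgeR adjusted p = 0.00302). All 3 camta6-5 libraries stood above all 3 Col-0 libraries, with little spread within either genotype. AIL1 was the 1 member called of 8 tested, where 0.216% of all tested genes were called, and the median of the list was 0.08. The other members, ANT, BBM, PLT1, PLT2, AIL5, AIL6 and AIL7, lay between -0.33 and 0.29 on the log2 scale.

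Of the remaining large rises, AT3G05170, a phosphoglycerate mutase family gene, had 2.70, 1.86 and 2.06 CPM in camta6-5 control, against 0.766, 0.672 and 0.542 CPM in Col-0 control (log2 1.73 ± 0.224, SE). AT1G10300, a nucleolar GTP-binding protein gene, had 4.94, 4.50 and 4.45 CPM in camta6-5 control, against 1.9, 2.32 and 1.79 CPM in Col-0 control (log2 1.21 ± 0.135). AT5G26220, the gamma-glutamyl cyclotransferase gene GGCT2;1 of glutathione breakdown, had 3.58, 3.65 and 4.38 CPM in camta6-5 control, against 1.45, 1.34 and 1.37 CPM in Col-0 control (log2 1.48 ± 0.236). None of these groups overlapped. The pseudogene AT2G07080 was higher by 1.398 ± 0.216, and AT1G47395 and AT2G30766, which the annotation leaves uncharacterized, by 1.81 ± 0.314 and 1.57 ± 0.257 on the log2 scale. AT3G05170 and AT2G30766 overlap a tested neighbour, so part of their reads may be of uncertain origin. AT3G05170 and AT1G10300 kept their calls without any 1 control library. AT1G47395 lost its call without every control library but camta6-5 control replicate 1 (edgeR adjusted p 0.0678 to 0.131), AT5G26220 without every one but camta6-5 control replicate 2 (0.0682 to 0.0951), AT2G30766 without camta6-5 control replicate 3 or any Col-0 control library (0.0607 to 0.121), and AT2G07080 without camta6-5 control replicate 1 or Col-0 control replicate 2 or 3 (0.0576 to 0.0781).

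The largest fall after TPR1 was that of MRD1 (AT1G53480), a gene named for its lower level in the methionine-overproducing mutant mto1-1. It had 0.0311, 0.130 and 0 CPM in camta6-5 control, 5 counts in all, against 0.992, 0.855 and 0.734 CPM in Col-0 control, 86 counts in all. The log2 fold change was -3.91 ± 0.52 (SE, edgeR adjusted p = 0.00662), and it overlaps other annotated genes, 1 of them tested. The lowest Col-0 library was far above the highest camta6-5 library. The size of the fall rests on the 5 counts in camta6-5: the log2 value was -5.46 without camta6-5 control replicate 2, which holds most of them, with the call kept, and -2.58 in the fit that leaves out the 5 libraries with the highest 18S share (edgeR adjusted p = 0.491).

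A pair of adjacent features on chromosome 5 fell together. AT5G33395, a pseudogene at 12664506 to 12666192, had 1.4, 1.24 and 1.03 CPM in camta6-5 control, against 6.24, 5.89 and 5.84 CPM in Col-0 control (log2 -2.29 ± 0.166, SE, edgeR adjusted p = 3.56e-05). AT5G33390, a glycine-rich protein gene at 12661789 to 12662820, had 1.15, 0.945 and 1.1 CPM in camta6-5 control, against 4.42, 4.86 and 4.95 CPM in Col-0 control (log2 -2.15 ± 0.162, edgeR adjusted p = 3.59e-05). Both kept their calls without any 1 library, and neighbouring features may share transcripts, so they are not counted as independent. ATGRP23, another glycine-rich protein gene, on chromosome 2, had 33.0, 37.3 and 34.5 CPM in camta6-5 control, against 72.1, 60.4 and 70.3 CPM in Col-0 control (log2 -0.95 ± 0.0985, edgeR adjusted p = 0.0012). AT5G24570, uncharacterized in the annotation and overlapping another feature, fell by 1.33 ± 0.203 on the log2 scale, a call lost without camta6-5 control replicate 1 (edgeR adjusted p = 0.071) or Col-0 control replicate 2 (0.0621).

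Both GOLDEN2-LIKE factors, GLK1 (AT2G20570) and GLK2 (AT5G44190), were lower in camta6-5. These factors switch on genes of chloroplast development and chlorophyll synthesis. GLK1 had 15.6, 15 and 17.1 CPM in camta6-5 control, against 30.1, 23.7 and 30.8 CPM in Col-0 control (log2 -0.83 ± 0.12, SE, edgeR adjusted p = 0.0106). GLK2 had 49.0, 43.2 and 46.4 CPM in camta6-5 control, against 82.6, 64.1 and 72.7 CPM in Col-0 control (log2 -0.66 ± 0.09, edgeR adjusted p = 0.00662). In both genes Col-0 control replicate 2 was the lowest Col-0 library and still stood above every camta6-5 library. The call of GLK1 was lost without camta6-5 control replicate 1 (edgeR adjusted p = 0.0595) or Col-0 control replicate 1 (0.0644), while that of GLK2 was kept without any 1 control library.

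Of 25 tested genes for photosynthesis and chlorophyll synthesis, 0 were called higher and 2 lower, where 0.0864% and 0.13% of all tested genes were. The 2 were the GLK genes themselves. The list's median was -0.18 on the log2 scale, against 0.006 for all genes. An unadjusted p under 0.05 was found for 4 of the 25, against 11.01% of all tested genes. DESeq2 called 3 genes of this list, against 157 of all 18515 tested genes. HEMA1, of the first committed step of tetrapyrrole synthesis, was at -0.37 ± 0.106 (SE, edgeR adjusted p = 0.253), and RBCS2B, a Rubisco small subunit gene, at -0.68 ± 0.17 (0.188). RBCS1A was at 0.11, and the light-harvesting genes ran from -0.75 for LHCB1.1 to 0.36 for LHCB1.2. The summed level of the list was 1411 to 1797 CPM in camta6-5 control and 1331 to 2017 CPM in Col-0 control, so the groups overlapped. PIFI, a gene of NDH-dependent electron flow in the chloroplast, was higher by 0.71 ± 0.127. Its call was lost without every control library but Col-0 control replicate 1 (edgeR adjusted p 0.0533 to 0.205) and with the replicate number as a block (0.0704).

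The lipid transfer protein list held the most calls beside the greening list. These small secreted proteins bind lipids, and many are made in the epidermis. Of 7 tested genes 2 were lower and 0 higher, where 0.13% and 0.0864% of all tested genes were. The list's median was -0.90 on the log2 scale, against 0.006 for all tested genes. LTP1 (AT2G38540) had 50.2, 72.7 and 55.5 CPM in camta6-5 control, against 109.9, 107 and 118 CPM in Col-0 control (log2 -0.91 ± 0.123, SE, edgeR adjusted p = 0.00662). LTP10 (AT5G01870) had 7.46, 9.45 and 12.7 CPM in camta6-5 control, against 22.4, 24.8 and 29.4 CPM in Col-0 control (log2 -1.37 ± 0.204, edgeR adjusted p = 0.0129). The groups did not overlap in either gene, and the call of LTP10 was lost without camta6-5 control replicate 1 (edgeR adjusted p = 0.0559) or replicate 2 (0.0506). LTP2 and LTP3 had differences of like size, -0.91 ± 0.234 and -0.90 ± 0.437, but did not pass (edgeR adjusted p = 0.193 and 0.477). LTP7 was the 1 member above 0, at 0.26 on the log2 scale. Summed over the list, the level was 353 to 470 CPM in camta6-5 control and 602 to 1023 CPM in Col-0 control, with no overlap. Most of that sum is LTP2, which was not called and averaged 303 CPM in camta6-5 control and 569 CPM in Col-0 control.

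KCS2, whose enzyme elongates very-long-chain fatty acids for suberin and wax, had 5.07, 4.17 and 6.64 CPM in camta6-5 control, against 9.56, 9.04 and 10.9 CPM in Col-0 control (log2 -0.89 ± 0.157, SE). XYL4, a beta-D-xylosidase gene, had 14.4, 14.8 and 23.2 CPM in camta6-5 control, against 32.6, 35.5 and 42.0 CPM in Col-0 control (log2 -1.07 ± 0.171). Both overlap other features, and both are among the less stable calls. The call of KCS2 was lost without every control library but camta6-5 control replicate 3 (edgeR adjusted p 0.0734 to 0.167), and that of XYL4 without camta6-5 control replicate 1 or 2 or Col-0 control replicate 2 or 3 (0.0645 to 0.1). In the list of 13 cell wall loosening genes, 0 were called by edgeR or DESeq2 and the median was 0.04. An unadjusted p under 0.05 was found for 2 of them, against 11.01% of all tested genes.

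Among stress regulators the call was DDF1 (AT1G12610), a DREB-type AP2 factor close to the CBF factors of cold acclimation. It had 4.57, 4.27 and 3.45 CPM in camta6-5 control, against 7.88, 9.96 and 8.90 CPM in Col-0 control (log2 -1.12 ± 0.159, SE, edgeR adjusted p = 0.00972). The lowest Col-0 library stood well above the highest camta6-5 library. Of the fits without 1 library, the call was lost in the one without Col-0 control replicate 2 (edgeR adjusted p = 0.0509). All 9 tested genes of the CBF, DREB and ZAT list had values below 0, with a median of -0.25, against 0.006 for all tested genes. Of the 9, 1 was called lower, where 0.13% of all tested genes were. An unadjusted p under 0.05 was found for 3 of them, against 11.01% of all tested genes. Whether the list departs from all genes was not tested. CBF4 was at -0.85 ± 0.215 (edgeR adjusted p = 0.19), CBF2 at -0.33, DREB2A at -0.25, CBF1 at -0.25, ZAT10 at -0.12 and ZAT12 at -0.10.

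ACS6, an ACC synthase gene of ethylene synthesis, had 85.1, 71.1 and 76.1 CPM in camta6-5 control, against 109, 106 and 106 CPM in Col-0 control. This was the smallest fall called, -0.47 ± 0.0735 (SE, edgeR adjusted p = 0.0182), and it was lost without camta6-5 control replicate 3 or Col-0 control replicate 1 or 2 (0.0506 to 0.0783). The chitinase family gene AT2G43590 had 1.68, 0.521 and 0.531 CPM in camta6-5 control, against 4.25, 6.75 and 6.06 CPM in Col-0 control (log2 -2.62 ± 0.477, edgeR adjusted p = 0.0462). It was the 1 called of 3 tested chitinase genes, where 0.216% of all tested genes were called. The call of AT2G43590 was lost without every control library but camta6-5 control replicate 1 (edgeR adjusted p 0.0783 to 0.134). It was also lost with the replicate number as a block (edgeR adjusted p = 0.0604) and in limma voom (adjusted p = 0.0578). Without camta6-5 control replicate 1 the call was kept and the log2 value was -3.43. The chitinase gene EP3 was at -2.03 ± 0.462 and did not pass (edgeR adjusted p = 0.128). Of 9 tested genes of salicylic acid and defence 0 were called by edgeR or DESeq2, 0 had an unadjusted p under 0.05, and PR2 and PR5 had no count in the 6 libraries.

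The other called genes differed by less than 2-fold. Higher were AT1G22980, a Grap2/cyclin-D-interacting protein gene (0.93 ± 0.119, SE), the glutathione S-transferase gene ATGSTU13 (0.59 ± 0.097), the invertase inhibitor gene C/VIF1 (0.53 ± 0.0849), the histone H4 gene HIS4 (0.46 ± 0.0784) and the RAMP4 gene AT1G27350 (0.34 ± 0.0618), the smallest rise called. Lower were AtSP7, which is the histone chaperone gene ASF1A (-0.81 ± 0.11), RPS16B (-0.82 ± 0.142), AT5G34871 (-0.83 ± 0.128), AT2G21300, a microtubule motor family gene (-0.77 ± 0.0993), AT3G42806 (-0.71 ± 0.103), AT2G13550 (-0.71 ± 0.112), the glucosyltransferase genes UGT88A1 (-0.68 ± 0.12) and UGT71B7 (-0.63 ± 0.09), and the cytochrome P450 gene CYP89A5 (-0.55 ± 0.0991). Their edgeR adjusted p ran up to 0.0462, and 3 of these 14 (AT1G22980, AtSP7 and AT2G21300) kept their calls without any 1 control library. The other 11 lost theirs without camta6-5 control replicate 1 (edgeR adjusted p 0.0541 to 0.236), and all of them but UGT71B7 and AT3G42806 also without at least 2 further control libraries. With the replicate number as a block the calls of HIS4 (edgeR adjusted p = 0.0539) and AT1G27350 (0.078) were lost. C/VIF1 and AT2G13550 overlap another annotated feature. Near-identical copies of histone H4 and of other family genes can share reads, and how the authors counted such reads is not given in the sources used here.

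**Figure D3:**
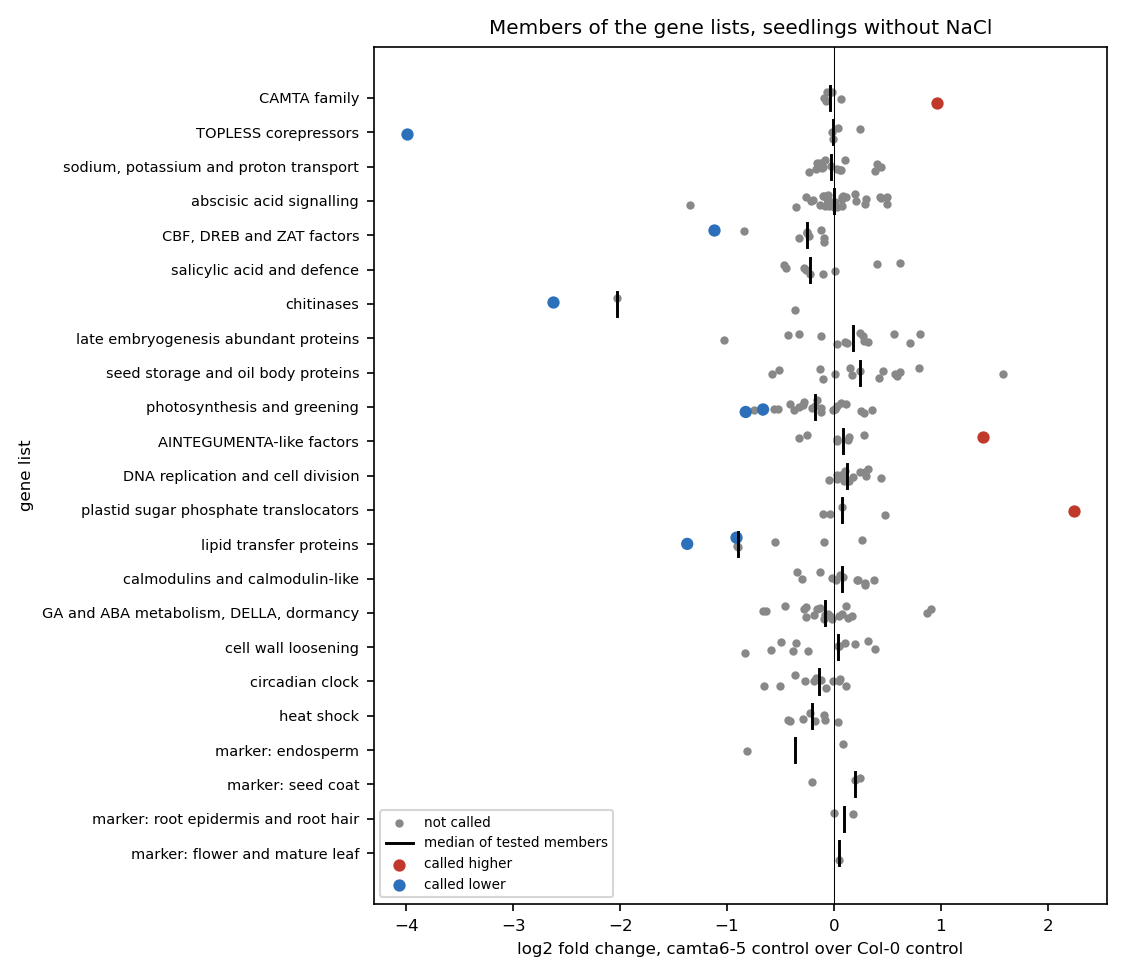
Log2 fold change, camta6-5 control over Col-0 control (x axis), of every tested member of the 23 gene lists (rows): grey points are members not called, red and blue points members called higher and lower, and black bars the medians of the tested members. The 10 called members are spread over 8 lists, and most list medians lie within 0.25 of 0.

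Genes of salt transport and of abscisic acid signalling showed no call without NaCl. In the 23 lists, which were chosen with earlier results of these data known, 240 of 276 genes were tested, and 3 were called higher and 7 lower, in 8 lists, where 0.0864% and 0.13% of all tested genes were. Of 15 tested genes of sodium, potassium and proton transport 0 were called (median -0.02 on the log2 scale, smallest edgeR adjusted p = 0.36), and of 31 of abscisic acid signalling 0 (median -0.00). At an unadjusted p under 0.05 there were 3 and 4 genes in these lists, against 11.01% of all tested genes, and DESeq2 called 0 in both. The receptor gene PYR1 was at 0.29 ± 0.102 (SE, edgeR adjusted p = 0.346). HKT1, a sodium transporter gene, had 1 count in the 6 libraries and was not tested.

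Seed maturation genes were not called either, with medians of 0.25 for 15 seed storage and oil body genes and 0.18 for 14 late embryogenesis abundant genes. The 2S albumin gene SESA4 came closest, with 22.6 CPM in camta6-5 control and 7.55 CPM in Col-0 control on average (log2 1.58 ± 0.295, SE, edgeR adjusted p = 0.052), while SESA1 and SESA3 were at -0.58 and -0.51. The summed level of seed storage genes was 762 to 1611 CPM in camta6-5 control and 695 to 1036 CPM in Col-0 control. Unadjusted p under 0.05 was reached by 5 seed storage and 3 late embryogenesis genes, and DESeq2 called 2 and 0. In DNA replication and cell division, 13 of 14 tested genes were above 0, with a median of 0.12, against 0.006 for all tested genes. Of these 14, 0 were called by edgeR or DESeq2, and 3 had an unadjusted p under 0.05. The calmodulin genes CAM4, CAM1 and CAM5 were at 0.37, 0.29 and 0.29 (edgeR adjusted p = 0.104, 0.152 and 0.188). Of 12 tested genes of that list edgeR called 0 and DESeq2 3, with 5 at an unadjusted p under 0.05. For comparison, DESeq2 called 157 of all 18515 tested genes, and 11.01% of them had an unadjusted p under 0.05. Whether any list exceeds these shares was not tested. The lists of gibberellin and abscisic acid metabolism (21 tested), the circadian clock (12) and heat shock (8) also had 0 calls in edgeR and DESeq2, with 2, 1 and 0 genes at an unadjusted p under 0.05 and medians of -0.09, -0.14 and -0.20.

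Markers of tissues a whole seedling can hold showed 0 calls in edgeR and DESeq2, and 0 had an unadjusted p under 0.05. For the seed coat, 3 of 7 markers were tested, with a summed level of 1061 to 1510 CPM in camta6-5 control and 1359 to 1493 CPM in Col-0 control, and BAN, TT8 and TT10 had no count. For the endosperm, 2 of 3 were tested, EPR1 at -0.81 ± 0.384 (SE, edgeR adjusted p = 0.465) and MAN7 at 0.09, with a summed level of 28.6 to 33.3 CPM in camta6-5 control and 26.1 to 63.8 CPM in Col-0 control. For root epidermis and root hairs, 2 of 4 were tested (GL2 and RHD6), with EXPA7 and COBL9 at 0 counts. For flower and mature leaf, 1 of 4 was tested, PI, with AG and SAG12 at 0. In whole seedlings, fewer cells of a type and less RNA per cell cannot be told apart, and the part of tissue make-up in the called genes was not tested.

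The called genes were then read in the other 6 libraries, where the same genotypes had 200 mM NaCl and 62.3% of all tested genes were called. Of the 40 genes, 28 went the same way, 7 were called the opposite way and 5 had no call. Of the 16 genes higher without NaCl, 15 were also higher with it and 0 lower, where 33.8% of all tested genes were higher. Of the 24 lower genes 13 were also lower and 7 higher, where 28.5% of all tested genes were lower. The genotype by NaCl interaction, which tests the difference itself, was called for 18 of the 40, against 48.1% of all tested genes. It was positive for 16 of the 40 and negative for 2, where 27.1% and 21% of all tested genes were. The difference without NaCl, on which the 40 were chosen, enters the interaction with a minus sign, so nothing is read from this split.

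The 7 genes that were lower in camta6-5 without NaCl and higher with it were GLK1, GLK2, LTP1, LTP10, KCS2, XYL4 and ACS6. GLK1 averaged 10.3 ± 1.13 CPM in camta6-5 NaCl and 6.69 ± 0.829 CPM in Col-0 NaCl (SD, n = 3 each), a log2 difference of 0.62, against -0.83 without NaCl (interaction 1.44 ± 0.176, SE, edgeR adjusted p = 4.14e-05). LTP1 averaged 33.7 ± 1.37 CPM in camta6-5 NaCl and 16.6 ± 2.21 CPM in Col-0 NaCl (log2 1.02, interaction 1.93 ± 0.178, edgeR adjusted p = 6.5e-06). KCS2 averaged 2.71 ± 0.171 CPM in camta6-5 NaCl and 0.677 ± 0.112 CPM in Col-0 NaCl (log2 1.99, interaction 2.89 ± 0.259, edgeR adjusted p = 5.45e-06). In each of these genes the level was lower with NaCl than without it in both genotypes, and by more in Col-0. The interactions of XYL4, LTP10, ACS6 and GLK2 were 2.85, 2.08, 1.3 and 1.04 on the log2 scale, all called by edgeR. For LTP10 the groups with NaCl overlapped, at 5.34, 4.41 and 3.05 CPM in camta6-5 NaCl and 3.25, 2.34 and 2.24 CPM in Col-0 NaCl. XYL4 had 73 counts in camta6-5 NaCl and 22 in Col-0 NaCl. These 7 genes were chosen on the difference without NaCl, which enters the interaction, so its size is not free of that choice.

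Among genes higher in camta6-5 in both media, APE2 averaged 34.5 ± 4.73 CPM in camta6-5 NaCl and 1.01 ± 0.0885 CPM in Col-0 NaCl (SD, n = 3 each), a log2 difference of 5.09, against 2.24 without NaCl (interaction 2.85 ± 0.434, SE, edgeR adjusted p = 0.000199). AIL1 averaged 9.05 ± 2.48 CPM in camta6-5 NaCl and 2.33 ± 0.374 CPM in Col-0 NaCl (log2 1.97), and its difference was not shown to change with NaCl (interaction 0.57 ± 0.254, edgeR adjusted p = 0.0809). CAMTA6 averaged 43.8 ± 7.43 CPM in camta6-5 NaCl and 30.9 ± 2.84 CPM in Col-0 NaCl (log2 0.50, interaction -0.46 ± 0.182, edgeR adjusted p = 0.0512). The 5 genes not called with NaCl were AT5G26220, DDF1, AT2G13550, AT3G42806 and AT5G34871. AT5G26220 was close to 0 in both genotypes with NaCl, so no difference could be read there, and DDF1 averaged 0.515 CPM in camta6-5 NaCl and 0.51 CPM in Col-0 NaCl.

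The called genes were found on all 5 nuclear chromosomes, with 14 of 4841 tested genes on chromosome 1 (0.289%), 9 of 2851 on chromosome 2 (0.316%), 7 of 3683 on chromosome 3 (0.19%), 1 of 2782 on chromosome 4 (0.0359%, ACS6) and 9 of 4310 on chromosome 5 (0.209%), beside 0.216% over all genes. By annotation, 36 were protein-coding genes, of 17869 tested (0.201%), 3 were pseudogenes, of 164 (1.83%), and 1 was a non-coding RNA gene, of 98 (1.02%). Of 130 tested genes annotated apart as transcribed pseudogenes, and of 90 annotated as long non-coding RNA, 0 were called. The called pseudogenes were AT2G07080, AT5G33395 and AT3G42806, and the called non-coding RNA gene was AT5G34871. No test of these shares was made.

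How far the calls rest on the libraries was read gene by gene. Of the 40, 15 kept their calls in each of the 6 fits that left out 1 control library, among them TPR1, AT5G33395, AT5G33390, MRD1, APE2, AIL1, CAMTA6, ATGRP23, LTP1 and GLK2. In a fit of the 6 control libraries alone 11 were kept: TPR1, APUM7, AIL1, AT5G33395, AT5G33390, ATGRP23, AT5G26220, AT3G42806, AtSP7, CAMTA6 and AT2G07080. With the replicate number as a block in that fit 17 were kept, which adds APE2 (edgeR adjusted p = 0.000355), LTP10 (0.00686), XYL4 (0.0231), GLK1 (0.0366), AT2G30766 (0.0426) and GLK2 (0.0436). Without the 5 libraries richest in 18S rRNA, which leaves 1 camta6-5 control library and assumes that it varies like the others, TPR1 was the 1 of the 40 still called (log2 -4.003, edgeR adjusted p = 1.81e-05). Values in that fit stayed close for AT5G33395 (-2.25), AT5G33390 (-2.38) and AIL1 (1.47), with edgeR adjusted p of 0.0511, 0.0723 and 0.0511, and moved to 0.77 for CAMTA6, 1.704 for APE2, -2.58 for MRD1, -3.62 for AT2G43590, -0.33 for UGT88A1 and -0.40 for AT2G13550.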

How the data were processed

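The deposited table held raw counts per gene for all 12 libraries, not normalized. Per the submitters' processing notes the tools were DESeq2 1.10.0, HTSeq 0.6.1, TopHat2 2.1.0 with Bowtie2 2.2.6, and cutadapt 1.9 on TAIR10, with settings not given in the sources used here. The kit, per the labels, does not mark strand, so reads of overlapping genes cannot be told apart.

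Counts were fitted in R 4.3.3 with edgeR 4.0.16: filterByExpr (minimum count 10), TMM factors, 1 mean per group over 12 libraries (8 residual degrees of freedom), two-sided quasi-likelihood tests, Benjamini-Hochberg over 18515 genes, threshold 0.05. CPM are TMM-scaled, and SE is the absolute log2 fold change divided by the square root of F. Alternatives used DESeq2 1.42.0 and limma 3.58.1. The fit was tested on simulated data. Whether replicates were separate cultures is not stated, so p-values measure the spread between these libraries, which may be technical. The same replicate numbers deviated together between the control groups (r 0.179 to 0.27 over 3 pairs, against -0.275 to 0.1 for other pairs). The numbers were therefore taken to pair those libraries in the fits with a replicate block. The main fit, which gave the reported calls, had no block. Between control and NaCl libraries of the same number, r was -0.0873 to -0.065 in Col-0 and -0.12 to 0.166 in camta6-5. Between camta6-5 NaCl and Col-0 NaCl libraries of the same number, r was 0.0237, -0.0706 and -0.218. The block over all 12 libraries gives a number the same effect in every group, which these values do not show for the NaCl libraries.

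Named genes were all called genes, the CAMTA and TOPLESS families, 7 salt and abscisic acid genes, called list members and 5 tested neighbours on each side of CAMTA6 and TPR1; a few uncalled list members (such as SESA4 and LTP2) were chosen after their values were seen. The comparison, lists and rules were chosen with earlier results of these data known. Promoter windows and coordinates of motifs are from RefSeq, TAIR10.1; 32835 of the table's genes were found there.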

Additional observations from a re-analysis of the deposited data

Results flagged for a closer look

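Each value here is the genotype by NaCl interaction on the log2 scale, the camta6-5 over Col-0 difference with NaCl minus the same difference without it, for a named gene whose interaction was called by edgeR; 48.1% of all tested genes were called in the same way.

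Among the genes that differed without NaCl, the interaction was positive for KCS2 (2.89), APE2 (2.85), XYL4 (2.85), AT2G30766 (2.13), LTP10 (2.08), LTP1 (1.93), GLK1 (1.44), ACS6 (1.3), DDF1 (1.15), GLK2 (1.04), AT2G13550 (0.841), AT1G27350 (0.84), AT5G34871 (0.84), AT3G42806 (0.627), TPR1 (0.59) and ATGRP23 (0.58). It was negative for AT5G24570 (-0.742) and UGT71B7 (-0.494). For TPR1 the gap was smaller with NaCl (log2 -3.40) than without it (-3.99), with Col-0 at 77.3 ± 3.75 CPM with NaCl and 101 ± 1.87 CPM without (SD, n = 3).

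Among named genes with no call without NaCl, the family members CAMTA2 (-0.39), CAMTA4 (-0.777), CAMTA5 (-0.33) and TPL (0.696) had an interaction. So did the salt and abscisic acid genes SOS1 (-0.967), NHX1 (-0.727), AVP1 (0.718), ABI4 (0.398), ABI5 (-0.958) and RD29B (-2.15). Of the neighbours of CAMTA6, COBL8 (1.83), GATA17 (-0.639), LPD1 (-0.439), NRPB9A (0.927) and UBC32 (-0.474) did, and of those of TPR1, NHO1 (1.55), PTAC17 (0.404), AT1G80500 (0.289) and AT1G80530 (0.853).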

How the results depend on the processing

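No called value changed sign under any alternative, although uncalled values near 0 such as that of AT1G80500 did. Of 1748 single-gene values recomputed, 1498 stayed on their side of the threshold, 243 lost the call and 7 gained one. The 1748 include named genes without a call in the main fit, so only the values of the 40 called genes, over 23 alternatives, could lose one. Against 16 genes higher and 24 lower, the counts were 5 and 6 with only the 6 control libraries, 33 and 42 with no filter on low counts, 72 and 85 in DESeq2, and 3 and 1 without the 5 libraries richest in 18S rRNA. Leaving out 1 library each gave 8 to 17 higher and 16 to 30 lower. The genes called in the same direction with NaCl, 28 of 40, numbered 49 of 75 with no filter, 90 of 157 in DESeq2 and 2 of 4 without the 18S-rich libraries, each out of that setting's own calls, and 15 to 31 in the fits without 1 library. The interaction was called for 37 of the named genes, for 19 without the 18S-rich libraries and for 32 to 40 without 1 library. With no scaling factors 14 were higher and 33 lower (29.8% higher, against 40%), with the median of all genes at -0.05 on the log2 scale.

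With the replicate block over all 12 libraries, 16 genes were higher and 27 lower, and 36 of the 40 kept their calls. The shared deviations behind the block were seen between the control groups only. The block ended the calls of AT2G43590 (edgeR adjusted p = 0.0604), AT1G27350 (0.078), HIS4 (0.0539) and PIFI (0.0704). With the block and only the 6 control libraries, 14 were higher and 11 lower, of which 17 were among the 40. Genes changed 1.5-fold were recovered in 32 of 67 simulated cases. This is not a rate for these data, and a gene without a call may still differ by that much or less. The causes of these moves were not tested. Fits that leave some libraries out differ from the main fit both in the number of libraries and in which ones they hold.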
